A study of Mus musculus with 90 samples.

Results

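Collagen chains are the secreted proteins that build most of the extracellular matrix, and their genes are followed here through the differentiation of mouse embryonic stem cells that carry different forms of the Polycomb protein CBX7. The members are every gene in the count tables whose symbol consists of Col, a number, the letter a and a number. There are 44 of them among the 24961 genes used of the embryoid body (EB) table and the 24984 genes of the neural progenitor cell (NPC) table. In the separate tables of the line CBX7-CaPS-R, 41 were found among 20823 and 20930 genes, without Col8a2, Col9a3 and Col14a1. All members found in a table passed the filter on low counts there.

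All cells were J1 mouse embryonic stem cells or their derivatives, grown as stem cells with LIF (leukemia inhibitory factor) on a layer of mouse embryonic fibroblast feeders, which were taken off before differentiation. CBX7, which binds methylated histone H3, is a subunit of Polycomb repressive complex 1 (PRC1), which keeps developmental genes off. The lines were WT; CBX7-CaPS, in which CBX7 carries the compaction and phase separation domain of its paralog CBX2; CBX7-mCaPS, with a mutated form of that domain; CBX7 KO; and CBX7-CaPS-R, whose R the labels do not explain. The EB series held stem cells (day 0) and bodies grown in hanging drops at days 6 and 10, and the NPC series held stem cells (day 0) and aggregates that received 5 uM retinoic acid from day 4, at days 6 and 8. Each of the 30 groups had 3 libraries of RNA depleted of ribosomal RNA, 90 in all. The labels do not say whether the 3 came from separate cultures or clones, so p-values measure the spread between libraries, which may be technical.

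A collagen molecule is a triple helix of 3 chains, which can come from 1 gene or from several. Fibrillar chains such as those of Col1a1, Col1a2, Col3a1 and Col2a1 pack into fibrils of connective tissue and cartilage, and fibroblasts are a main source of the first 3. Type IV chains form the sheet of the basement membrane under epithelia and around vessels and are made from the earliest stages of the embryo, in large amounts by parietal endoderm. The other families link fibrils (types IX, XII and XVI), form beaded filaments (type VI), build hexagonal or anchoring structures (types VII, VIII and X), span the cell membrane (types XIII, XVII, XXIII and XXV) or carry an endostatin domain in basement membranes (types XV and XVIII).

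The 36 EB libraries of WT, CaPS, mCaPS and KO held 10.6 M to 55.9 M counts each (M, 1000000; median 40.6 M) and the 36 NPC libraries 11.8 M to 59.3 M (median 39.2 M). CaPS-R libraries held 11.0 M to 110.0 M in EB and 11.7 M to 29.1 M in NPC. Rn45s, the ribosomal RNA precursor, took 2.7% to 88.7% of counts in EB and 4.2% to 50.3% in NPC libraries of the first 4 lines, with the highest share in EB mCaPS day 0 library 3. Collagen genes together made up 0.08% to 2.393% of the counts outside Rn45s in EB and 0.123% to 0.785% in NPC. Among low counts, even numbers made up 42.1% to 43.5% in 6 EB libraries, which are library 1 of WT and of CaPS at each day, and 73.5% to 94.1% in the other 30. EB CaPS day 6 library 3 and NPC CaPS library 1 at days 6 and 8 also stood apart from the other libraries of their groups, as given with the results. Cbx7 RNA was not called lower in the libraries labelled KO at any day of either series. At NPC day 0 it was 191, 157 and 162 counts per 1000000 counts (CPM) in WT and 112, 137 and 120 CPM in KO (edgeR quasi-likelihood test, adjusted p = 0.413). The RNA level therefore does not check that label.

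Levels below are CPM after scaling by trimmed mean of M values, listed for libraries 1, 2 and 3 in that order. A result without a library, such as without WT library 1, left out that line's library of that number at every day. This left 2 libraries in each group of the line. A gene is called higher or lower, or said to have risen or fallen, at an adjusted p below 0.05 (edgeR quasi-likelihood test, Benjamini-Hochberg over all genes tested). Fold changes are log2 ratios with their standard error (SE). The WT libraries are the controls of every line, so comparisons with WT share them. In bulk RNA, fewer cells of a type and less RNA per cell cannot be told apart.

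Most collagen genes were expressed somewhere. A group mean of at least 1 CPM was reached by 39 of the 44, of at least 10 CPM by 31 and of at least 100 CPM by 14. The genes whose highest group mean stayed under 1 CPM were Col4a3, Col4a4, Col6a6, Col19a1 and Col28a1. The highest group mean was in an EB mCaPS day 0 group for Col1a1 (2630 CPM), Col1a2 (1340 CPM), Col18a1 (939 CPM) and Col5a1 (823 CPM), a group in which library 3 stands far above libraries 1 and 2. Col3a1 was highest in NPC mCaPS day 8 (719 CPM), Col2a1 in NPC WT day 6 (315 CPM) and Col4a1 in EB KO day 10 (1000 CPM).

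**Figure D1:**
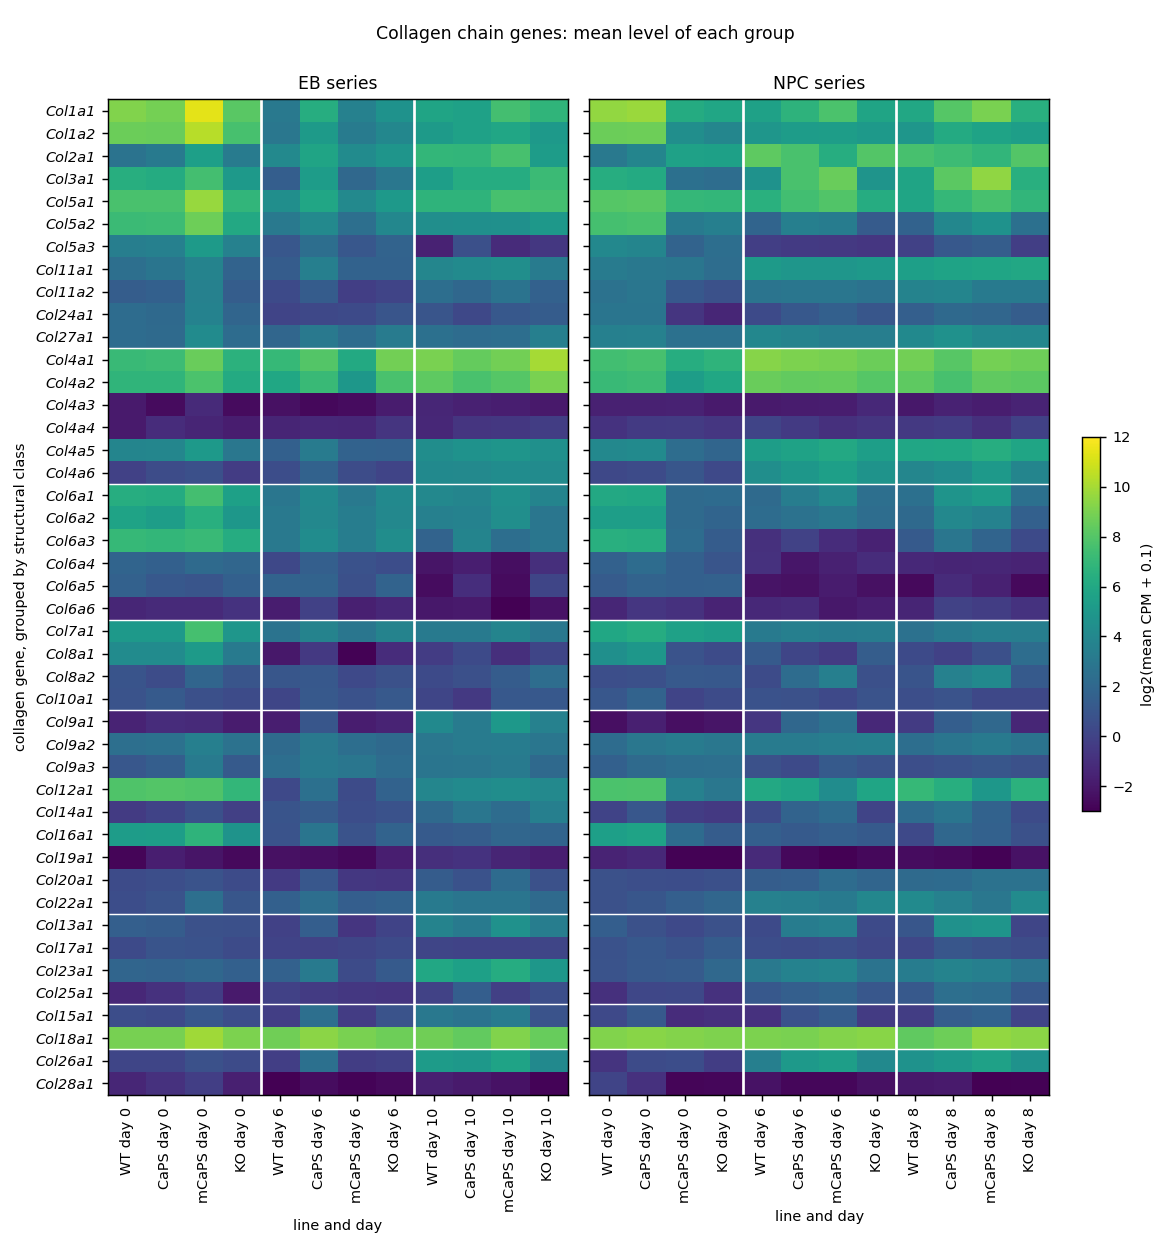
Mean level of the 44 collagen genes in each group of 3 libraries, as log2 of mean CPM plus 0.1, with genes in rows by structural class and lines and days in columns. The rows of Col1a1, Col1a2, Col3a1, Col5a1, Col5a2, Col6a1, Col6a2, Col6a3, Col12a1 and Col16a1 are bright at day 0 in EB and in WT and CaPS of NPC, while the Col4a1, Col4a2 and Col18a1 rows are bright in most columns.

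WT stem cells and their derivatives differed in which chain led. Per kilobase of gene model, the EB day 0 order began with Col1a1 (97.1 ± 101 CPM per kb, SD, n = 3), Col18a1 (83.0 ± 5.62) and Col1a2 (76.6 ± 69.9). Col18a1, which carries the precursor of endostatin, had the smallest spread of the 3, and the neighbours Col1a1, Col18a1 and Col1a2 did not differ beyond theirs. At EB day 6 Col18a1 led with 74.6 ± 22.2 CPM per kb, followed beyond the spread by Col4a1 (20 ± 10.9) and then Col4a2 (9.44 ± 5.72). At EB day 10 Col4a1 (75.8 ± 23.2) and Col18a1 (73.3 ± 21.7) were followed by Col4a2 (47.4 ± 12.5) and Col2a1 (24.2 ± 14.4), with overlapping spreads between neighbours. At NPC day 0 the order again began with Col1a1 (127 ± 147), Col18a1 (97.5 ± 32.3) and Col1a2 (76.5 ± 79.8). At NPC day 6 it was Col4a1 (93.8 ± 20.1), Col18a1 (92.4 ± 9.74), Col2a1 (61.3 ± 15.8) and Col4a2 (58.7 ± 13.1), and at day 8 Col4a1 (67.6 ± 42.6), Col18a1 (56.6 ± 21.5), Col4a2 (47.6 ± 30.3) and Col2a1 (37.9 ± 8.18), where only Col18a1 and Col2a1 at day 6 were neighbours whose means ± SD did not overlap.

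The class shares, taken of CPM without regard to gene length, changed over the days as well. Fibrillar chains held on average 43.9% of WT collagen CPM at EB day 0 (25.8% to 59.1% over libraries), 9.8% at day 6 (5.9% to 13.2%) and 21.1% at day 10 (18.6% to 24.9%). The 6 type IV chains held 10.0% (8.7% to 10.9%), 25.3% (11.9% to 32.3%) and 44.2% (40.2% to 51.5%). In the NPC series fibrillar chains held 45.9% (31.1% to 61.4%), 24.9% (21.4% to 27.8%) and 27.1% (19.1% to 32.1%) at days 0, 6 and 8. Type IV chains held 10.1% (9.4% to 10.8%), 45.5% (41.2% to 50.5%) and 41.6% (31.0% to 55.0%). The summed collagen level in WT EB was 2830 ± 1970 CPM at day 0, 769 ± 161 at day 6 and 1920 ± 443 at day 10 (SD, n = 3). In WT NPC it was 3220 ± 2710, 2320 ± 272 and 1870 ± 670 CPM.

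During the first 6 days of WT embryoid body growth, 6 of 11 fibrillar chains fell, Col1a1, Col1a2 and Col3a1 among them. Of the 44 members 14 fell and 0 rose, where 4.62% of all genes tested fell and 7.88% were called in either direction. The median log2 change of the members was -0.89 and that of all genes -0.02. Those that fell were 6 of 11 fibrillar, 3 of 6 type VI, 2 of 9 fibril-associated, 2 of 4 network and anchoring and 1 of 6 type IV chains. Col12a1, which decorates type I fibrils, was at 53.2, 284 and 355 CPM at day 0 and at 0.563, 1.63 and 1.26 CPM at day 6 (log2 change -7.61, SE 1.02, adjusted p = 1.68e-05). Col1a1 was at 24.8, 491 and 1210 CPM at day 0 and at 0.788, 5.95 and 18.2 CPM at day 6 (-6.09, SE 1.58, adjusted p = 0.0136). Libraries of the 2 days did not overlap for either gene, and the day 0 libraries of Col1a1 differed from each other by a wide margin, library 1 being low.

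Other chains of connective tissue fell as well. Col1a2, the partner chain of Col1a1 in type I collagen, went from 82.6, 319 and 799 CPM to 3.6, 6.82 and 12.6 CPM (-5.69, SE 0.99, adjusted p = 0.000331), and Col3a1, of distensible tissues, from 21.4, 59.2 and 176 CPM to 1.24, 1.45 and 5.37 CPM (-4.96, SE 1.23, adjusted p = 0.01). Col8a1, of the hexagonal network of vessels and cornea, (-6.95), Col16a1 (-4.53), Col5a2 (-4.22), Col6a3 (-4), Col6a1 (-3.51) and Col5a1 (-3.31) fell. Col6a2, Col7a1, Col24a1 and Col4a5 fell too. The abundant Col18a1 was at 444, 506 and 492 CPM at day 0 and at 550, 295 and 452 CPM at day 6, and Col4a1 at 66.4, 144 and 221 CPM and then 58.2, 136 and 203 CPM, so neither separated the days.

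Fibroblast genes moved with these chains. A list of 12 genes of fibroblasts or feeder cells that holds no collagen (S100a4, Mmp3, Ccl2, Ccl7, Ccl11, Thy1, Lum, Dcn, Postn, Mmp2, Prrx1 and Twist2) summed to 260 to 1000 CPM in WT at EB day 0, to 35.4 to 52.7 CPM at day 6 and to 157 to 173 CPM at day 10. Of the 12 genes 11 fell from day 0 to day 6, and their part in the collagen result was not tested. The result leaned on WT libraries 2 and 3: without library 3 the number that fell was 4, and without library 2 it was 6. With the replicate number as a block, 18 fell and 1 rose, where 2045 of all genes were called against 1402 without the block.

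From day 6 to day 10 of WT embryoid bodies more members rose than fell. Of the 44 members 12 rose and 3 fell, where 9.07% of all genes rose and 7.12% fell (16.2% in either direction), with a median log2 change of 1.55 for the members and 0 for all genes. Col9a1, a chain of the cartilage collagen type IX, was at 0.169, 0.29 and 0.143 CPM at day 6 and at 24.4, 11.1 and 15.8 CPM at day 10 (log2 change 6.4, SE 0.96, adjusted p = 6.56e-05). Col26a1 was at 0.9, 0.725 and 0.644 CPM and then at 42.3, 43.4 and 28.4 CPM (5.66, SE 0.62, adjusted p = 4.38e-06). The transmembrane chain Col23a1 went from 0.9, 4.6 and 3.7 CPM to 85.6, 46.5 and 61.9 CPM (4.38, SE 0.69, adjusted p = 0.000104). Every day 10 library of these genes lay above every day 6 library.

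Among the fibrillar chains, Col3a1 (3.97, SE 1.18, adjusted p = 0.02), Col2a1, the main chain of cartilage collagen (2.89, SE 0.78, adjusted p = 0.0107) and Col11a1 (2.55, SE 0.68, adjusted p = 0.00925) rose, with Col5a1 and Col11a2. Col2a1 was at 8.05, 23.9 and 18.2 CPM at day 6 and at 66.6, 208 and 97.8 CPM at day 10, with no overlap between the days. The X-linked type IV pair rose together: Col4a6 by 3.67 on the log2 scale (SE 0.59, adjusted p = 0.000124) and Col4a5 by 2.74 (SE 0.7, adjusted p = 0.00654). Col13a1, a transmembrane collagen of cell junctions, rose by 3.95 and Col12a1 by 3.65. Col6a5 (-5.37, SE 0.89, adjusted p = 0.000132), Col6a4 (-3.15) and the fibrillar Col5a3 (-3.07, SE 1.06, adjusted p = 0.0445) fell, from low levels: Col6a5 was at 5.74, 1.31 and 3.12 CPM at day 6 and at 0.089, 0 and 0.131 CPM at day 10. Col1a1 was at 10.9, 73.7 and 74.8 CPM at day 10 and was not called. Its day 10 library 1 overlapped the day 6 values, but each library lay above the day 6 library of the same number. Col4a1 was at 331, 550 and 627 CPM at day 10, all above its day 6 values but not called. With the replicate number as a block, 21 rose and 3 fell, where 5452 of all genes were called against 2879 without the block. Without WT library 1, 2 or 3 the numbers that rose were 6, 7 and 10 and those that fell 1, 2 and 1. The 4 endothelial genes summed to 23.4 to 58.9 CPM at day 6 and 232 to 331 CPM at day 10, the 5 cardiac genes to 3.09 to 13.1 CPM and 110 to 930 CPM, and the 6 pluripotency genes to 1290 to 1490 CPM and 136 to 343 CPM. The part of these cell types in the collagen result was not tested.

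**Figure D2:**
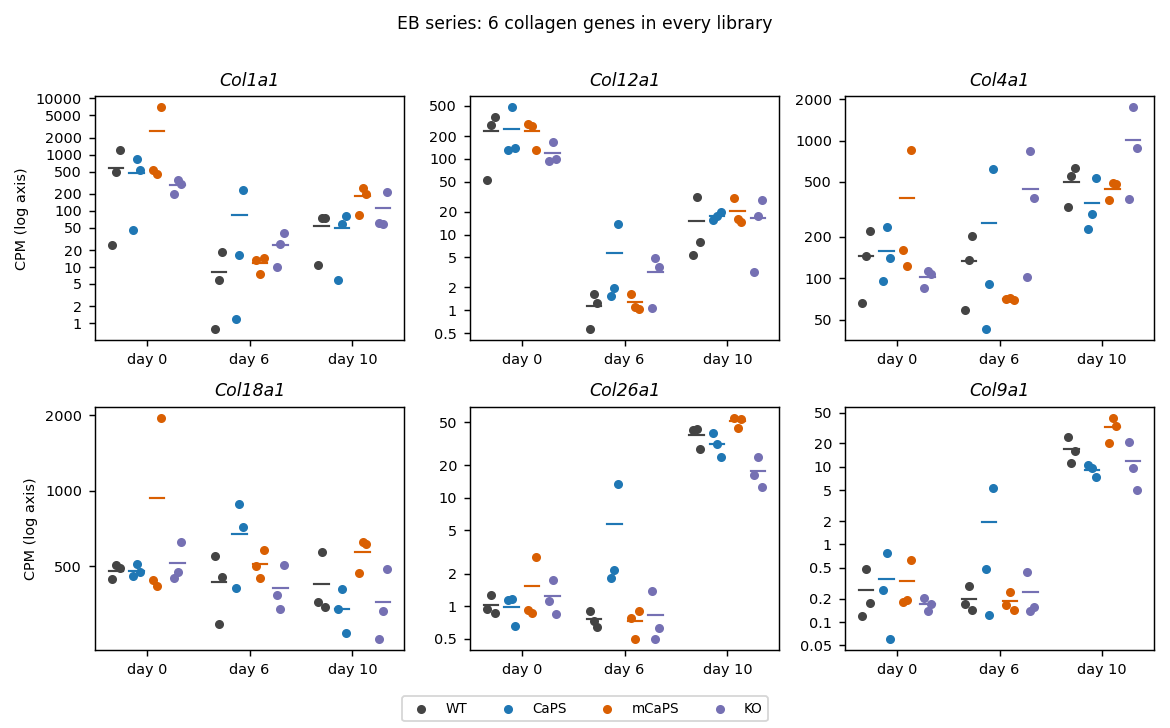
CPM (log axis) of Col1a1, Col12a1, Col4a1, Col18a1, Col26a1 and Col9a1 in every EB library of WT, CaPS, mCaPS and KO at days 0, 6 and 10, with points for libraries and bars for group means. In WT the day 6 points of Col1a1 and Col12a1 lie below those of day 0, the day 10 points of Col26a1 and Col9a1 lie above those of day 6 in each of the 4 lines, and 1 CaPS library at day 6 lies above the other 2 for Col1a1, Col12a1, Col4a1, Col26a1 and Col9a1.

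In WT of the NPC series Col2a1, Col26a1 and Col4a6 rose from the stem cells to the retinoic acid aggregates, and Col6a3, Col5a2 and Col1a1 were among the chains that fell. From WT day 0 to day 6 8 members rose and 14 fell, where 19% of all genes rose and 18.2% fell (37.3% in either direction), so the number that rose was near the background. Col2a1 was at 15.3, 2.81 and 6.49 CPM at day 0 and at 369, 354 and 221 CPM at day 6 (log2 change 5.27, SE 0.81, adjusted p = 1.2e-05). Col26a1 rose by 4.47 (SE 0.71, adjusted p = 1.86e-05), from at most 0.766 CPM to between 3.86 and 19.3 CPM. Col4a6 (4.32), Col22a1, found at tissue junctions (2.95), the transmembrane chains Col25a1 (2.28) and Col23a1 (2.28), Col11a1 (1.96) and Col4a1 (1.81, SE 0.57, adjusted p = 0.0136) rose as well. Col4a1, at 351, 127 and 53.4 CPM at day 0, reached 517, 577 and 772 CPM.

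The fall was deep for type VI, with 5 of its 6 chains. Col6a3, the large chain of the type VI filament, was at 105, 116 and 38.8 CPM at day 0 and at 0.272, 0.376 and 0.636 CPM at day 6 (-7.66, SE 0.83, adjusted p = 6.52e-08). Col5a2 (-5.76, SE 1.11), Col5a3 (-4.4), Col6a5 (-4.31), Col16a1 (-4.01), Col1a1 (-3.97, SE 0.99, adjusted p = 0.00237), Col6a1 (-3.9), Col1a2 (-3.77, SE 0.89, adjusted p = 0.00147), Col8a1 (-3.3) and Col28a1 (-3.17) were the others of the 10 with the largest falls. The fibroblast or feeder list summed to 180 to 1030 CPM in WT at day 0 and 39.8 to 89.9 CPM at day 6, with 11 of 12 genes lower, and its part in the result was not tested. Without WT library 2, 5 members rose, and without WT library 1, 9 fell. From day 6 to day 8 only Col6a3 was called, higher by 2.45 in the edgeR test (SE 0.72, adjusted p = 0.0327), at 3.15, 1.56 and 2.25 CPM. Of all genes 4.59% were higher and 7.34% called. The Col6a3 call was lost without WT library 1, 2 or 3. With the replicate number as a block more members were called between these days, as counted in the last section. Same-numbered libraries of the 2 days had correlations of 0.4, 0.08 and 0.34, not all above 0.1.

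At day 0 of the NPC series, before any differentiation, mCaPS and KO had lower levels of connective tissue chains than WT. In mCaPS 11 members were lower and 1 was higher than in WT, where 1.97% of all genes were lower, 1.05% higher and 3.02% called in either direction. In the libraries labelled KO 14 were lower and 1 higher (3.11% of all genes lower, 2.4% higher, 5.52% called). Col6a3, at 105, 116 and 38.8 CPM in WT, was at 2.51, 2.7 and 9.41 CPM in mCaPS (-4.15, SE 0.69, adjusted p = 0.00115) and at 3.26, 1.68 and 2.57 CPM in KO (-5.11, SE 0.72, adjusted p = 0.000182). Col1a2, at 869, 256 and 73.2 CPM in WT, was at 19.9, 15.8 and 28.8 CPM in mCaPS (-4.22, SE 0.91, adjusted p = 0.00901) and at 18.8, 12.3 and 12.2 CPM in KO (-4.79, SE 0.94, adjusted p = 0.00284). Col3a1, at 174, 56.2 and 16.7 CPM in WT, was at 6.45, 3.89 and 7.05 CPM in mCaPS (-3.83, SE 0.9, adjusted p = 0.0159) and at 5.39, 3.55 and 6.38 CPM in KO (-4.01, SE 0.91, adjusted p = 0.00867). For these 3 genes every mCaPS and KO library lay below every WT library, and within WT library 3 was the lowest.

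The other chains lower in mCaPS were Col5a2 (-4.38), Col28a1 (-4.3), Col12a1 (-4.16), Col6a1 (-3.94), Col24a1 (-3.74), Col8a1 (-3.73), Col16a1 (-3.27) and Col6a2. In KO they were Col12a1 (-4.82), Col24a1 (-4.6), Col28a1 (-4.23), Col8a1 (-4.19), Col16a1 (-4.17), Col5a2 (-4.12), Col6a1 (-3.85), Col1a1, Col6a2, Col4a5 and Col11a2. Col1a1 was at 1750, 422 and 101 CPM in WT, at 89.4, 48 and 82.7 CPM in mCaPS, where it was not called, and at 66.4, 37.9 and 69.6 CPM in KO (-3.7, SE 0.98, adjusted p = 0.0231). Col2a1 was the 1 member that was higher. It was at 15.3, 2.81 and 6.49 CPM in WT, at 83.1, 34.7 and 24 CPM in mCaPS (2.54, SE 0.72, adjusted p = 0.0492) and at 57.7, 50.5 and 29.6 CPM in KO (2.5, SE 0.72, adjusted p = 0.0391). Its call was lost in mCaPS without mCaPS library 1 or 2 or WT library 2 or 3 and with relative log expression scaling, in KO without KO library 1 or 2 or WT library 2 or 3, and in both without the filter on low counts. Col4a1 overlapped between the lines, at 351, 127 and 53.4 CPM in WT, 118, 55.3 and 69.3 CPM in mCaPS and 135, 82 and 106 CPM in KO.

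Between CaPS and WT at day 0 none of the 44 members was called in the edgeR test (0% of all genes called), 1 at an unadjusted p below 0.05 and 0 by DESeq2. With the replicate number as a block 1 member was called, where 818 of all genes were called. Col6a3 was at 128, 79.1 and 32.1 CPM in CaPS and Col1a2 at 828, 384 and 51.2 CPM. Libraries with the same number had similar levels in both lines, with library 3 the lowest in each. Against mCaPS 12 members were higher and 0 lower in CaPS, where 1.71% of all genes were higher and 2.1% were called. Col5a2 (4.5), Col1a2 (4.29, SE 0.91, adjusted p = 0.00958), Col12a1 (4.2), Col8a1 (4.2), Col6a3 (4.03, SE 0.68, adjusted p = 0.00214), Col6a1 (3.77), Col24a1 (3.74), Col3a1 (3.62, SE 0.89, adjusted p = 0.0265), Col1a1 (3.55, SE 0.97, adjusted p = 0.0484) and Col16a1 (3.47) were the 10 largest, with Col6a2 and Col11a2 beyond them. Only 1 was called without mCaPS library 1 or 2, 6 without mCaPS library 3, 7 without CaPS library 2, and 8 without CaPS library 1. Over all genes 375 were called with every library, 28 without mCaPS library 1, 75 without CaPS library 2 and 300 without CaPS library 1.

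The fibroblast or feeder list separated the same groups of day 0 libraries. It summed to 180, 628 and 1030 CPM in WT, in rising order, to 143 to 866 CPM in CaPS, to 46.4 to 56.0 CPM in mCaPS and to 38.0 to 81.8 CPM in KO. Of its 12 genes 10 were lower in mCaPS and 11 in KO than in WT, and 10 were higher in CaPS than in mCaPS. At EB day 0 the sums were 260 to 1000 CPM in WT, 599 to 742 CPM in CaPS, 255 to 755 CPM in mCaPS and 367 to 547 CPM in KO. By edgeR, Col7a1 was the only member called at EB day 0, in the comparisons of mCaPS with WT and CaPS. DESeq2 called more members between mCaPS and WT there. The part of feeder cells in the day 0 differences was not tested. Leaving out 1 library number of a line left 2 to 16 members lower in mCaPS. These were 2 without mCaPS library 2, 3 without mCaPS 1, 6 without mCaPS 3, 4 without WT 1, 7 without WT 2 and 16 without WT 3. In KO 7 to 14 were lower, with 7 without KO library 2 and 8 without KO 1 or WT 1.

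**Figure D3:**
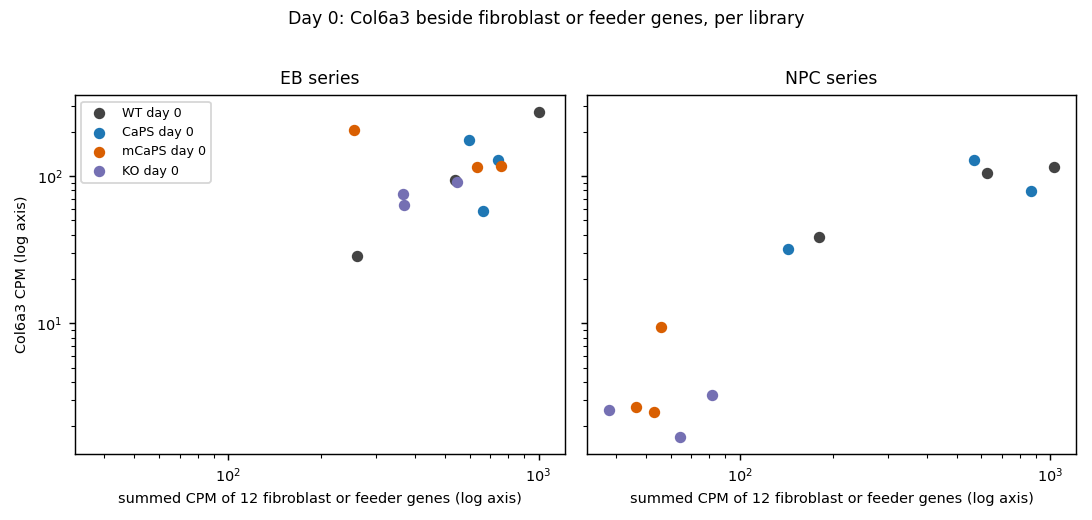
CPM of Col6a3 against the summed CPM of 12 fibroblast or feeder genes in each day 0 library of 4 lines, both on log axes, EB series left and NPC series right. In NPC the mCaPS and KO libraries lie at list sums of 38.0 to 81.8 CPM and the WT and CaPS libraries at 143 to 1030 CPM, while in EB the 4 lines overlap.

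At days 6 and 8 of the NPC series mCaPS had higher levels of several chains than WT. At day 6 3 members were higher than in WT and 0 lower, where 1.35% of all genes were higher and 2.22% were called. Col3a1 was at 19.1, 29 and 25.3 CPM in WT and at 348, 144 and 631 CPM in mCaPS (3.93, SE 0.9, adjusted p = 0.0249). Col13a1 was at 1.33, 1.31 and 0.954 CPM in WT and at 19.1, 3.05 and 13.1 CPM in mCaPS (3.28, SE 0.8, adjusted p = 0.0317). Col8a2, which forms the hexagonal lattice of the corneal endothelium with Col8a1, was at 1.47, 1.03 and 1.21 CPM and at 8.45, 2.67 and 21.4 CPM (3.13, SE 0.74, adjusted p = 0.0292). The groups did not overlap for any of the 3, but 0 members were higher when WT library 1, 2 or 3 or mCaPS library 1 or 3 was left out.

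At day 8 9 members were higher and 1 was lower, where 9.39% of all genes were higher and 9.06% lower (18.5% in either direction). The members' median log2 difference was 0.56 and that of all genes 0. Higher were 4 of 11 fibrillar chains, 1 of 6 type VI, 1 of 4 network, 1 of 4 transmembrane and both endostatin-containing chains, and no type IV chain. Col3a1 was at 22.6, 78.6 and 63.5 CPM in WT and at 463, 378 and 1320 CPM in mCaPS (3.71, SE 0.89, adjusted p = 0.00557). Col13a1 was at 0.326, 3.2 and 2.18 CPM and at 35.6, 16.9 and 31.3 CPM (3.87, SE 0.82, adjusted p = 0.00253), and Col8a2 at 0.653, 3.12 and 1.58 CPM and at 26.9, 8.69 and 15.3 CPM (3.24, SE 0.74, adjusted p = 0.00427). Col1a1, at 28.4, 97 and 65.8 CPM in WT, was at 383, 223 and 912 CPM (2.99, SE 0.95, adjusted p = 0.028). For each of these genes the lowest mCaPS library lay above the highest WT library.

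Col5a2 (2.97, SE 0.99, adjusted p = 0.0362) and Col5a1 (1.8, SE 0.6, adjusted p = 0.0376), chains of the type V collagen that starts fibrils, were higher, as were Col6a1 (2.74, SE 0.69, adjusted p = 0.00797), Col15a1 (2.16) and Col18a1 (1.18, SE 0.33, adjusted p = 0.0132). Col18a1 had 185, 396 and 403 CPM in WT and 622, 914 and 699 CPM in mCaPS. Col22a1 was lower, at 12.5, 23.7 and 17.7 CPM in WT and 8.83, 10.8 and 3.04 CPM in mCaPS (-1.24, SE 0.42, adjusted p = 0.0404). Col1a2 overlapped, at 8.25, 34.9 and 46.4 CPM and 77.1, 31.7 and 50 CPM, although it is the partner chain of Col1a1. Col4a1 was at 189, 407 and 749 CPM in WT and 364, 631 and 379 CPM in mCaPS, and Col2a1 at 196, 236 and 152 CPM and 83.7, 223 and 39.4 CPM. Without mCaPS library 3 2 members were higher, without WT library 1 3 and without WT library 2 or 3 6, and Col22a1 was called lower only without mCaPS library 2.

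**Figure D4:**
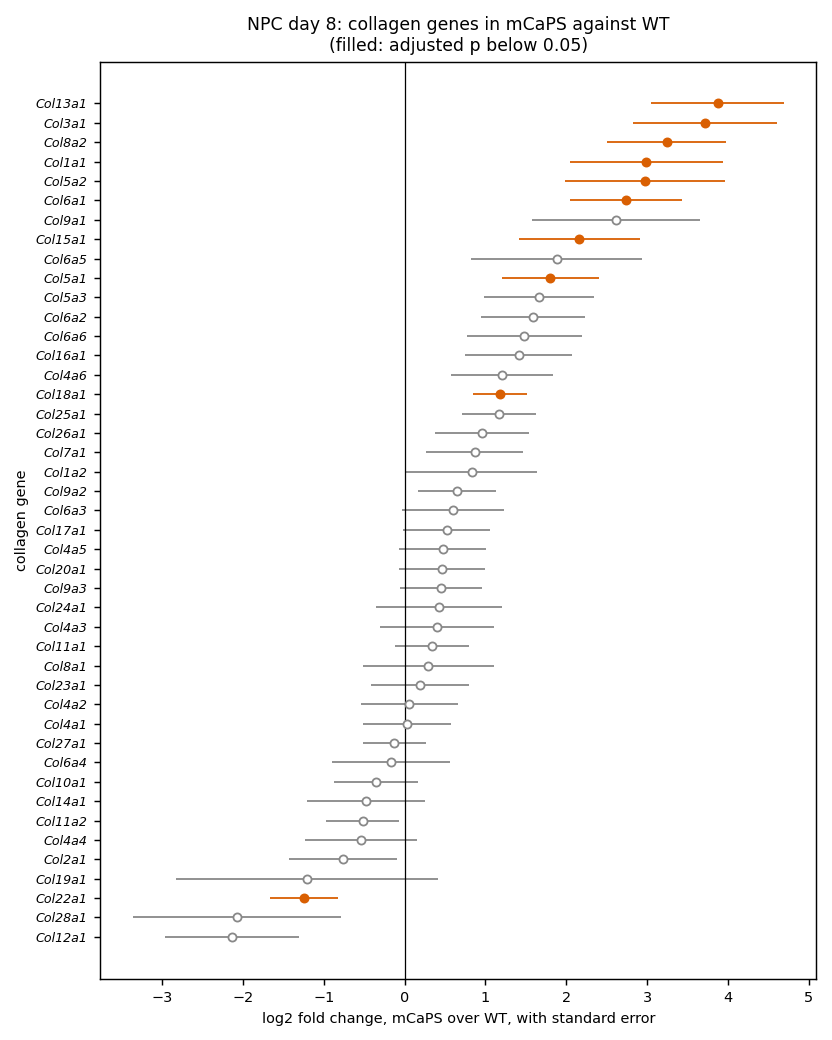
Log2 fold change of mCaPS over WT at NPC day 8 with its SE for all 44 collagen genes, ordered by size, with filled points for the 10 genes called. Col13a1, Col3a1 and Col8a2 lead the 9 filled points above 0, and Col4a1 and Col4a2 lie near 0.

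CaPS at these days was split between its libraries. None of the 44 members was called against WT in the edgeR test at day 6 (0% of all genes called) or day 8 (0.0112% called), and DESeq2 called 2 and 3. At an unadjusted p below 0.05 there were 6 and 13, where 1175 and 1567 of all 17818 genes tested were. Same-numbered CaPS and WT libraries deviated together at both days (correlations 0.12 to 0.46 at day 6 and 0.34 to 0.59 at day 8). The edgeR test given here does not use that pairing. At day 8 Col3a1 was at 63.1 CPM in CaPS library 1 and at 436 and 404 CPM in libraries 2 and 3. Col13a1 was at 1.74 CPM and at 41.5 and 29.7 CPM, and Col1a1 at 46 CPM and at 417 and 327 CPM. CaPS library 1 lay within the WT range for these genes, and libraries 2 and 3 lay within or just above the mCaPS range. Without CaPS library 1, 5 members were higher and 1 lower at day 6 and 7 were higher at day 8, where 444 and 1054 of all genes were called. Against mCaPS no member was called at day 6 (0.0112% of all genes, 0 at an unadjusted p below 0.05) or day 8 (1.59% of all genes, 1 at an unadjusted p below 0.05) by edgeR, and none by DESeq2.

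Marker lists of other cell types moved in the same libraries. At day 8, 9 genes of extraembryonic endoderm summed to 78.0 to 288 CPM in WT, 78.4 to 808 CPM in CaPS and 772 to 1210 CPM in mCaPS, with 5 of 9 higher in mCaPS. The 4 endothelial genes summed to 10.9 to 22.9 CPM in WT, 16 to 157 CPM in CaPS and 91.3 to 182 CPM in mCaPS, with 4 of 4 higher in mCaPS. The 12 fibroblast or feeder genes summed to 20.3 to 53.5 CPM in WT, 32.2 to 224 CPM in CaPS and 137 to 371 CPM in mCaPS, with 3 of 12 higher in mCaPS. The 5 neuronal genes summed to 774 to 1660 CPM in WT, 124 to 1450 CPM in CaPS and 14.3 to 94.5 CPM in mCaPS, with 5 of 5 lower in mCaPS. The 5 neural progenitor genes summed to 1870 to 2600 CPM in WT and 457 to 894 CPM in mCaPS, with 2 of 5 lower, and the 8 genes of cartilage or notochord to 123 to 196 CPM and 20.6 to 81.0 CPM, with 2 of the 7 tested lower. The part of these cell types in the collagen differences was not tested.

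**Figure D5:**
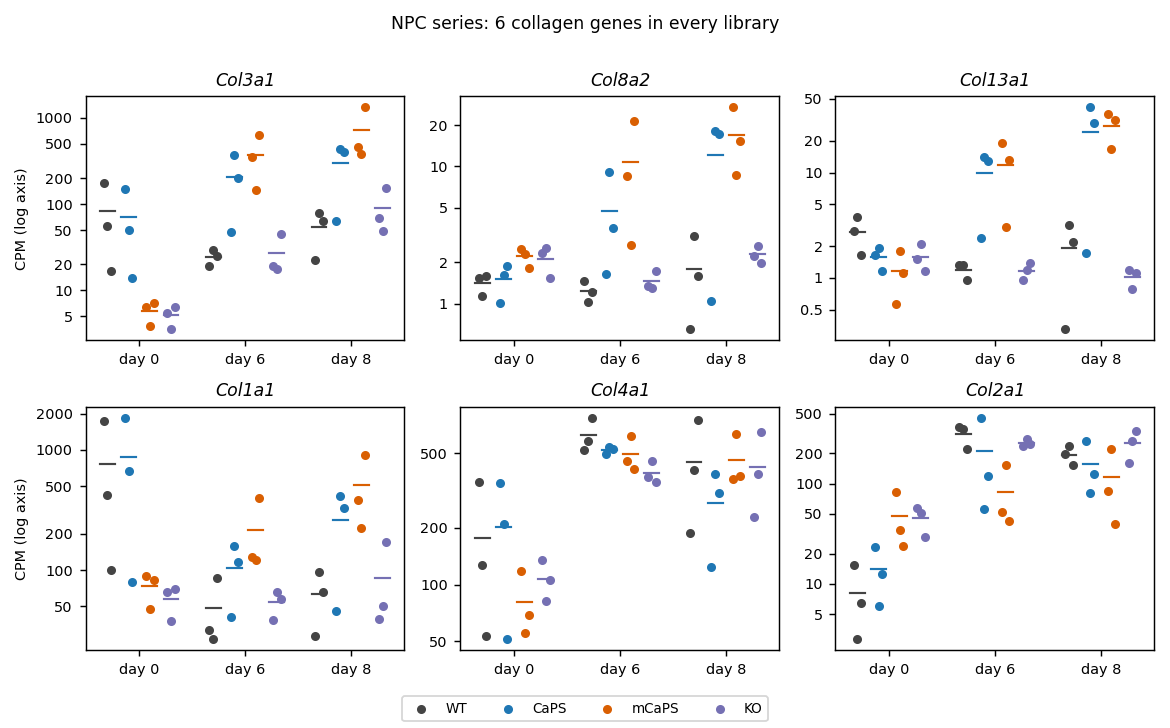
CPM (log axis) of Col3a1, Col8a2, Col13a1, Col1a1, Col4a1 and Col2a1 in every NPC library of 4 lines at days 0, 6 and 8, with points for libraries and bars for group means. At day 8 the mCaPS libraries of Col3a1 lie between 378 and 1320 CPM and those of WT between 22.6 and 78.6 CPM, and 1 CaPS library lies near WT.

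The start regions of 5 chains that were higher in mCaPS at NPC day 8 are shown because these genes were called together while the CpG content of their upstream sequences ranged widely. Each is the 120 bases just before the RefSeq start (RefSeq on GRCm38.p6, the same build as mm10), 5′ to 3′ on the gene's strand, with matches to TATAAA or GGGCGG on either strand in capitals.
Col3a1, chr1:45311418-45311537 (plus strand): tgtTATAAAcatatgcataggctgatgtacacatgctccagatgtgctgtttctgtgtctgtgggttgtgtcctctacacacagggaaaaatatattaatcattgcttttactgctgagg
Col6a1, chr10:76726045-76726164 (minus strand): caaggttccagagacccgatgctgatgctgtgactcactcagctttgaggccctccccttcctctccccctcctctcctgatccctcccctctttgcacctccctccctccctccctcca
Col5a1, chr2:27886305-27886424 (plus strand): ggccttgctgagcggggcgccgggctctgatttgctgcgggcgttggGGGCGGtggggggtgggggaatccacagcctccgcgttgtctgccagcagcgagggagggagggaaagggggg
Col8a2, chr4:126286674-126286793 (plus strand): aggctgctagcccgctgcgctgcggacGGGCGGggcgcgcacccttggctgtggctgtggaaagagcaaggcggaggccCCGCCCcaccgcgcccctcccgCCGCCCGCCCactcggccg
Col13a1, chr10:61979109-61979228 (minus strand): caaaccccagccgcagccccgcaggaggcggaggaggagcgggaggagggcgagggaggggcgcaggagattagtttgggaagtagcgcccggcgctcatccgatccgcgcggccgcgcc
The 250 bases before the start held 0 CpG in Col3a1, 3 in Col6a1, 24 in Col8a2, 24 in Col13a1 and 28 in Col5a1. Col15a1 and Col18a1, also higher but not shown, lay between these, with 8 in Col15a1 and 12 and 3 at the starts of Col18a1. Col1a1 and Col5a2, the other members that were higher, had no entry in the RefSeq promoter table. Col13a1 also held TATAAA in its 250 bases, outside the 120 shown. Of the 44 members 35 had an entry in the RefSeq promoter table, with 38 windows in all because some genes have several starts. GGGCGG (both strands) was found in 57.9% of the 38 windows and in 32.7% of all 32851 windows of the same length, CCAAT in 34.2% and 33.8%, and TATAAA in 13.2% and 12.4%. The median CpG number per window was 9.5 for collagen genes and 6 for all. A match is a description of the letters and not of a bound site.

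In the libraries labelled KO no member was called against WT at the later NPC days, at day 6 (0.0281% of all genes called; 0 at an unadjusted p below 0.05 and 0 by DESeq2) or day 8 (0.0505% called; 3 unadjusted and 0 by DESeq2). Col3a1 at day 8 was at 68.1, 48.5 and 152 CPM and Col4a1 at 229, 385 and 645 CPM in KO. The change from day 0 to day 8 was also compared with that of WT. In KO this interaction test called the change of 4 members above that of WT (0.281% of all genes above, 0.337% called). They were Col8a1 (6.3, SE 1.19, adjusted p = 0.0187), Col1a2, Col16a1 and Col6a3. Such a call means a different change and not a higher level at day 8. For mCaPS the test called 14 changes above and 2 below those of WT (4.68% of all genes above, 4.82% below, 9.49% called). For CaPS it called 0 (0% of all genes), with 5 members and 887 of all genes at an unadjusted p below 0.05 and 1 member by DESeq2. In mCaPS Col3a1 was at 6.45, 3.89 and 7.05 CPM at day 0 and 463, 378 and 1320 CPM at day 8, against 174, 56.2 and 16.7 and then 22.6, 78.6 and 63.5 CPM in WT (interaction 7.54 on the log2 scale).

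Few collagen genes were called between the lines in embryoid bodies. Between CaPS and WT none of the 44 was called at day 0, 6 or 10 (0%, 0% and 0.00562% of all genes called in the edgeR test), and DESeq2 called 0, 2 and 0. At an unadjusted p below 0.05 there were 0, 15 and 4 members, where 255, 971 and 763 of all 17791 genes tested were. At day 6, 40 members lay above 0, with a median log2 difference of 1.21 for the members and 0 for all genes. Same-numbered CaPS and WT libraries deviated together at these days (correlations 0.12 to 0.75), a pairing that these tests do not use. In CaPS library 3 at day 6, Rn45s took 63.0% of counts and 5 cardiac genes summed to 487 CPM, against 5.83 CPM in the lowest CaPS library, and their part in the values of that library was not tested. Col1a1 was at 1.17, 16.6 and 231 CPM in CaPS and 0.788, 5.95 and 18.2 CPM in WT, and Col4a1 at 42.6, 91.1 and 617 CPM in CaPS. Against mCaPS at day 6 2 members were higher in CaPS (0.927% of all genes higher, 1.12% called): Col26a1, at 1.82, 2.14 and 13.3 CPM against 0.785, 0.494 and 0.902 CPM (2.87, SE 0.56, adjusted p = 0.00447), and Col23a1, at 3.48, 4.29 and 18.4 CPM against 0.768, 0.989 and 1.98 CPM (2.73, SE 0.66, adjusted p = 0.0297). The groups did not overlap for either gene, but 0 members were called without CaPS library 3 or mCaPS library 1 or 2. At day 10 no member was called between CaPS and mCaPS (3.18% of all genes called). At an unadjusted p below 0.05 there were 8 members and 2491 of all genes, and DESeq2 called 2 members.

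Col7a1, which forms the anchoring fibrils under epithelia, was the 1 member called by edgeR between mCaPS and WT at EB day 0 (0.281% of all genes higher, 0.916% called). It was at 15.3, 25.1 and 63.5 CPM in WT, 25.5, 45.7 and 30.9 CPM in CaPS and 61.4, 45.5 and 468 CPM in mCaPS (2.46, SE 0.62, adjusted p = 0.046 against WT, and -2.49, SE 0.62, adjusted p = 0.0468 for CaPS against mCaPS, where 0.174% of all genes were lower and 0.793% called). The mCaPS and WT libraries overlapped, and both calls were lost without mCaPS library 3. The first was also lost without WT library 1 or 2, and the second without CaPS library 1, 2 or 3. In mCaPS library 3 Rn45s took 88.7% of counts. Col1a1 there was at 6900 CPM and Col18a1 at 1960 CPM, against 535 and 451 CPM and 442 and 418 CPM in the other mCaPS libraries, while its fibroblast or feeder sum was the lowest of the group at 255 CPM. DESeq2 called more members than edgeR between mCaPS and WT at day 0. No member was called between mCaPS and WT at day 6 (0.54% of all genes called, 1 unadjusted) or day 10 (0.708% called, 1 unadjusted) by edgeR, and none by DESeq2.

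In the libraries labelled KO the type IV chains were high in libraries 2 and 3 of the later EB days, without a call. Col4a1 was at 102, 846 and 380 CPM at day 6 and at 374, 1740 and 889 CPM at day 10, where WT had 331, 550 and 627 CPM at day 10. Col4a2 followed, at 43.1, 394 and 184 CPM and at 183, 892 and 455 CPM. Endoderm genes summed to 179 to 583 CPM at day 6 and 494 to 998 CPM at day 10 in KO. In WT they summed to 159 to 311 CPM and 416 to 703 CPM, so the lines overlapped at both days. The part of these genes in the type IV levels was not tested. Col6a5, a minor chain of type VI, was the 1 member called, at day 10 (0.253% of all genes higher, 0.877% called). It was at 0.089, 0 and 0.131 CPM in WT and 0.218, 1.45 and 1.27 CPM in KO (3.6, SE 0.87, edgeR adjusted p = 0.03), low levels in both groups. Without KO library 2 or 3, or without WT library 1, 2 or 3, 0 members were called. At day 0 no member was called (0.641% of all genes, 0 unadjusted), nor at day 6 (0.646%, 3 unadjusted), by edgeR, and none by DESeq2. No member's change from day 0 to day 10 was called against that of WT in CaPS, mCaPS or KO (0%, 0% and 0.00562% of all genes called, 0 members by DESeq2). At an unadjusted p below 0.05 there were 1, 5 and 4 members, where 437, 933 and 632 of all genes were.

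CaPS-R was counted in tables of its own and compared with WT over the genes shared, so line and table cannot be told apart. At NPC day 0 20 of 41 members were lower and 0 higher than in WT, where 14.4% of all genes were lower and 22.1% were called, with a median log2 difference of -1.77 for the members and -0.18 for all genes. Lower were 8 of 11 fibrillar, 4 of 6 type IV and 3 of 6 type VI chains. Col1a1 was at 1760, 423 and 102 CPM in WT on this scale and at 8.24, 52.9 and 9.78 CPM in CaPS-R (-5, SE 1.13, adjusted p = 0.00142). Col3a1 was at 176, 56.4 and 16.9 CPM and at 0.798, 4.87 and 0.528 CPM (-5.29, SE 1.23, adjusted p = 0.00182), and Col6a3 at 106, 116 and 39.2 CPM and at 0.886, 5.51 and 0.528 CPM (-5.2, SE 0.84, adjusted p = 2.45e-05). Groups did not overlap for these 3, and within CaPS-R library 2 was the highest. Without WT library 1, 12 members were lower.

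Col24a1 (-5.16), Col6a1 (-5.03, SE 0.79), Col1a2 (-4.72, SE 1.04, adjusted p = 0.00108), Col12a1 (-4.71), Col4a5 (-4.51, SE 0.74), Col4a6 (-4.45) and Col8a1 (-4.42) completed the 10 with the largest differences. Col4a2 (-2.23, SE 0.65, adjusted p = 0.0112) and Col4a1 (-1.78, SE 0.6, adjusted p = 0.0299) were lower as well, with Col4a1 at 354, 128 and 53.9 CPM in WT and 41, 60.8 and 54.7 CPM in CaPS-R, an overlap through WT library 3. All 12 fibroblast or feeder genes were lower in CaPS-R, where they summed to 17.7 to 41.7 CPM and 2 to 4 of them were at 0. Rn45s took 41.9%, 52.2% and 69.3% of counts in these CaPS-R libraries and 42.7%, 23.1% and 21.7% in WT. The part of either in the result was not tested.

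At later days CaPS-R had few collagen calls. At NPC day 6 Col11a2, a chain of cartilage fibrils, was higher, at 15.2, 23.3 and 18.9 CPM against 7.75, 7.71 and 4.2 CPM (1.54, SE 0.44, adjusted p = 0.0143), and Col6a4 was lower (-3.81, SE 1.23, adjusted p = 0.0248; 7% of all genes higher, 7.65% lower, 14.6% called), and neither was called without CaPS-R library 2 or WT library 3. At NPC day 8 none was called in edgeR (14% of all genes called), with 2 at an unadjusted p below 0.05 and 0 by DESeq2. Col3a1 was at 172, 6.01 and 13.1 CPM in CaPS-R and 21.7, 72.1 and 59 CPM in WT, with library 1 of CaPS-R far above the other 2. In EB no member was called at day 0 (9.7% of all genes, 4 unadjusted, 1 by DESeq2) or day 6 (8.86%, 3 unadjusted, 2 by DESeq2), and at day 10 3 were higher and 2 lower (8.24% of all genes higher, 9.05% lower, 17.3% called). Col7a1 was at 23.3, 67.7 and 26.7 CPM in CaPS-R and 7.57, 7.94 and 11.7 CPM in WT (2.11, SE 0.59, adjusted p = 0.0122). Col5a3 (3.54, SE 1.08, adjusted p = 0.0199) and Col6a4 (2.49) were higher, and Col9a1 (-2.25, SE 0.76, adjusted p = 0.0381) and Col4a6 (-1.63, SE 0.58, adjusted p = 0.0462) were lower. Without CaPS-R library 2 0 were higher, without WT library 1 or 3 1 was higher, and 0 were lower without CaPS-R library 1 or 3 or WT library 1 or 3. The 6 pluripotency genes summed to 1220 to 1470 CPM in CaPS-R at day 10 against 136 to 343 CPM in WT, and their part in these differences was not tested.

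The genes that modify, cut, cross-link or bind collagen were followed as 3 lists: 32 genes of the collagen machinery, 8 receptors and 14 basement membrane partners that passed the filter on low counts in the tables of 4 lines. From EB WT day 0 to day 6, 16 machinery genes fell and 0 rose, among them the cross-linking enzyme Lox (-7.14, SE 0.81) and its relative Loxl3 (-4.58), and 3 receptors fell, among them Ddr2 (-5.05, SE 0.84), a receptor kinase for fibrillar collagen, where 4.62% of all genes fell. From day 6 to day 10, 12 machinery genes rose and 2 fell, among them Adamts2, which removes the amino-terminal propeptide (3.63, SE 0.69), and the laminin chains Lama2 (3.72) and Lama4 (3.56) were among 5 basement membrane partners that rose, where 9.07% of all genes rose and 7.12% fell. From NPC WT day 0 to day 6, 4 machinery genes rose and 9 fell, with the prolyl hydroxylase P3h2 at 4 (SE 0.62) and Lox at -6.8 (SE 1.12), where 19% of all genes rose and 18.2% fell, so the share of machinery genes that rose lay under that of all genes.

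Genes of these lists were also called between lines. At NPC day 0, 7 machinery genes and 4 receptors were lower in mCaPS than in WT, among them Lox (-3.76) and Ddr2 (-4.27), where 1.97% of all genes were lower, and 8 and 4 were lower in KO, where 3.11% were. CaPS had 7 and 4 higher than mCaPS, where 1.71% of all genes were higher. At NPC day 8 mCaPS had 11 machinery genes higher and 3 lower, 4 of 8 receptors higher and 10 of 14 basement membrane partners higher and 1 lower. Pcolce, which speeds the removal of the carboxyl propeptide, was higher by 2.99 (SE 0.62), Adamts2 by 3.06 (SE 0.8), the integrin chain Itga1 by 2.36, and the basement membrane linker Nid1 by 2.15. Against 9.39% of all genes higher at that day, the partners of type IV collagen were called while Col4a1 and Col4a2 themselves were not.

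Some chain genes share a start region or a molecule. Col4a1 (mm10 chr8:11198423-11312826, minus strand) and Col4a2 (chr8:11312805-11449287, plus strand) are transcribed away from each other, and their annotated first exons overlap by 22 bases, chr8:11312805-11312826. The overlap is shown because reads there would lie in both genes where counting does not use strand, which is not stated.
Col4a1 and Col4a2 overlap: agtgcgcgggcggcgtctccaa
Col4a4 and Col4a3 lie 71 bases apart on chromosome 1 in the same arrangement and Col4a6 and Col4a5 1342 bases apart on the X chromosome. The ratio of Col4a1 to Col4a2 CPM stayed between 1.55 and 2.43 in library 1 of WT and of CaPS at the 3 EB days (6 libraries, median 2), between 1.17 and 2.37 in the other 30 EB libraries (median 1.71) and between 1.21 and 2.17 in the 36 NPC libraries (median 1.45). Type I collagen is built from Col1a1 (chr11:94936224-94953042, plus strand) and Col1a2 (chr6:4505618-4541543, plus strand) on different chromosomes. The ratio of Col1a1 to Col1a2 was 0.144 to 0.3 in those 6 libraries (median 0.241), 0.872 to 3.88 in the other 30 EB libraries (median 1.56) and 1.3 to 18.2 in NPC (median 2.88). The 6 libraries, with totals of 13.1 to 18.8 M counts, did not overlap with any other library in this ratio. The cause was not tested.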

How the data were processed

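RNA from 90 libraries was measured. Raw read counts per gene, as deposited by the authors, were used. Per the submitters' processing notes, the reads went through HOMER 4.10.4, featureCounts 1.6.3, STAR 2.7.0, cutadapt 1.14 and edgeR (listed without order) on build mm10. Strandedness of counting is not given in the sources used here. Left out were rows whose symbols had become dates (23 in EB, 22 in each table of CaPS-R), the last line of both CaPS-R tables and 9 columns of a further line.

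Counts were fitted per series with edgeR 4.0.16 (R 4.3.3, limma 3.58.1, TMM scaling, filterByExpr, robust quasi-likelihood, 36 libraries in 12 groups; 45 in 15 with CaPS-R over shared genes). Tests are two-sided, p-values were adjusted by Benjamini-Hochberg over 17791 EB or 17818 NPC genes (15379 and 15334 with CaPS-R). Fold changes use a prior count of 0.125, and SE is the unshrunk log2 ratio over the square root of F. The scripts were tested on simulated data for mCaPS against WT at day 6, with the same dispersion for all genes. Of genes changed by 1 on the log2 scale, 10% were called in EB and 11% in NPC. Of those changed by 2, 80% and 82% were called. Only genes above a floor on their mean counts were changed, so these shares may be lower for members with low counts or a wide spread between libraries. A member that was not called may therefore still differ. Alternatives were DESeq2 1.42.0, another scaling, no filter, Rn45s left out, a replicate block, and each library number of a line left out at every day.

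Replicate numbers come from the labels. Same-numbered libraries deviated together (each correlation above 0.1) for EB WT days and for CaPS against WT in both series, so their blocked counts stand beside results that changed. Members and lists were chosen with earlier results of these data known. Col1a1, Col1a2, Col3a1, Col4a1, Col4a2 and Col2a1 are named throughout, otherwise at most 10 called members per direction with the largest change. Col18a1 and the chains of pairs are also named, chosen after their levels were seen.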

Additional observations from a re-analysis of the deposited data

Results flagged for a closer look

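The change from day 0 to day 8 of the NPC series differed from that of WT in a test of the difference itself (edgeR interaction, n = 3 per group). For the libraries labelled KO it differed in 4 collagen genes, with log2 differences of 6.3 in Col8a1 (adjusted p = 0.0187), 5.3 in Col1a2 (adjusted p = 0.0451), 4.55 in Col16a1 (adjusted p = 0.0268) and 4.18 in Col6a3 (adjusted p = 0.0366). Col8a1 was at 39, 25.1 and 3.26 CPM in WT and 1.57, 1.03 and 1.08 CPM in KO at day 0, and at 0.771, 0.861 and 1.95 CPM and 2.71, 2.45 and 10.2 CPM at day 8. Col6a3 was at 105, 116 and 38.8 CPM and 3.26, 1.68 and 2.57 CPM at day 0, and at 3.15, 1.56 and 2.25 CPM and 2.03, 1.04 and 0.556 CPM at day 8. In WT the day 8 values lay below the day 0 values in both genes, and in KO the ranges of the 2 days were close together for Col6a3. These 4 calls were made again without WT library 3, and 0 members were called when any other library number of KO or WT was left out.

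For mCaPS 16 collagen genes were called, with adjusted p from 0.000671 to 0.0336. The log2 difference was 7.54 in Col3a1, 7.35 in Col5a2, 6.68 in Col6a1, 6.35 in Col1a1, 5.11 in Col13a1, 5.04 in Col1a2, 4.82 in Col6a2, 4.75 in Col6a3, 4.69 in Col16a1, 4.17 in Col24a1, 4.02 in Col8a1, 3.92 in Col5a3, 3.82 in Col15a1, 2.81 in Col5a1, -2.1 in Col22a1 and -3.29 in Col2a1. Col5a2 was at 407, 133 and 24.1 CPM in WT and 9.42, 6.92 and 10.6 CPM in mCaPS at day 0, and at 1.96, 3.28 and 4.17 CPM and 18.6, 6.82 and 48 CPM at day 8. Col6a1 was at 106, 74.1 and 22.7 CPM and 6.55, 2.58 and 4.08 CPM at day 0, and at 3.32, 7.67 and 6.08 CPM and 44, 14.8 and 55.6 CPM at day 8. In both genes mCaPS lay below WT at day 0 and above it at day 8. The part of the fibroblast or feeder genes, which were lower in mCaPS at day 0, was not tested. Without WT library 1, 7 members were called higher and 2 lower, and without WT library 3, 16 higher and 0 lower.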

How the results depend on the processing

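No collagen result reversed its direction under the alternatives run. Of the values for single genes that were called, 1189 stayed past the threshold and 410 no longer passed it. Scaling by relative log expression and leaving out Rn45s moved no count of called members, summed over the days of a comparison, by over 1.5 times, but that scaling gave 0 higher for mCaPS at NPC day 0 (1), 1 lower for CaPS-R at EB day 10 (2) and 2 higher for CaPS-R at NPC day 6 (1). Counts below are called members over all days of a comparison, against the count as reported. With DESeq2, CaPS against WT had 2 in EB (0) and 5 in NPC (0), mCaPS against WT 6 in EB (1) and 40 in NPC (25), KO against WT 2 in EB (1), CaPS against mCaPS 10 in EB (3) and CaPS-R against WT 10 in EB (5), and the interaction had 1 for CaPS (0) and 11 for KO (4) in NPC. With the replicate block, WT EB gave 1 higher at day 6 against day 0 (0) and 21 higher at day 10 against day 6 (12), and WT NPC day 8 against day 6 gave 7 higher (1) and 4 lower (0). The block gave 0 for mCaPS and for KO against WT in EB (1 each), 1 for CaPS against mCaPS in EB (3) and 3 in NPC (12), 9 for CaPS-R in EB (5) and 9 in NPC (22), 1 for CaPS in NPC (0) and 0 for the KO interaction in NPC (4). At NPC day 0 it gave 4 lower for mCaPS (11) and 11 for KO (14). Without a filter, WT NPC day 8 against day 6 had 0 higher (1), mCaPS against WT in EB 0 (1) and the KO interaction in NPC 2 (4). Over all genes, the KO interaction in NPC had 60 calls as reported, 270 with DESeq2, 0 with the block and 42 without a filter. The CaPS interaction in NPC had 0 calls over all genes as reported and 10 with DESeq2. Without the 6 EB libraries numbered 1 of WT and CaPS, day 10 against day 6 had 1 lower (3), mCaPS and KO against WT 0 each (1), and CaPS against mCaPS 8 (3).

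Each library number of a line was left out in turn, at every day of that line together. This gave 4 to 13 lower for WT EB day 6 against day 0 (14). For day 10 against day 6 it gave 6 to 10 higher and 1 to 2 lower (12 and 3). For WT NPC day 6 against day 0 it gave 5 to 11 higher and 9 to 16 lower (8 and 14), and for day 8 against day 6 0 to 0 higher (1). In EB it gave 0 to 1 for CaPS (0), 0 to 4 for mCaPS (1), 0 to 2 for KO (1), 1 to 4 for CaPS against mCaPS (3) and 1 to 6 for CaPS-R (5). In NPC it gave 0 to 13 for CaPS (0; 13 without CaPS library 1), 8 to 22 for mCaPS (25), 7 to 14 for KO (15), 1 to 17 for CaPS against mCaPS (12), 14 to 21 for CaPS-R (22), and for the interactions 0 to 2 for CaPS (0), 0 to 4 for KO (4) and 9 to 16 for mCaPS (16). Over all genes, the NPC interactions gave 0 to 80 calls for CaPS (0), 1 to 70 for KO (60) and 525 to 1410 for mCaPS (1691). Where the comparison was not paired by the check of replicate numbers, the block counts show only a shared number. WT NPC day 8 against day 6 missed that check in 1 of its correlations (0.4, 0.08 and 0.34), so a pairing there is not settled. Genes near 1 CPM, such as Col6a5 and Col8a2, rest on low counts where libraries hold 10.6 M to 11.8 M counts.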
